A study of Rattus norvegicus with 24 samples.

Results

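The genes described here encode the enzymes of conjugation and their partners: UDP-glucuronosyltransferases (Ugt), glutathione S-transferases (Gst), sulfotransferases (Sult), arylamine N-acetyltransferases (Nat1 and Nat2), epoxide hydrolases (Ephx) and the ABC transporters of subfamily C (Abcc). Members are the probe sets whose only gene symbol in the platform annotation begins with one of these names, with the phenol sulfotransferase Sult1a1 left out. That gave 78 probe sets for 40 genes, of 8740 probe sets and 4736 singly named genes on the array. By family they were 14 probe sets for 10 Ugt genes, 25 for 12 Gst genes, 16 for 8 Sult genes, 8 for Nat1 and Nat2, 5 for Ephx1 and Ephx2, and 10 for 6 Abcc genes. A further 22 probe sets carry several symbols of these families and were not assigned to a gene.

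Gene expression was measured in whole brain of rats on 24 single-colour oligonucleotide arrays, 1 per sample. The 12 control samples had 3 min of halothane and were then perfused at once with ice-cold saline, so that the controls had also inhaled the agent. The exposed groups had 90 min exposures, 2 per day with 3 h of recovery between them: 5 exposures over 2.5 days or 10 over 5 days, to 0.8% halothane or to 1.0% isoflurane, with 3 samples in each of the 4 groups. Both agents are halogenated inhaled anaesthetics, and they were given at different concentrations. Nothing used here gives strain, sex, age or the delay between the last exposure and perfusion. The labels do not say whether replicates were separate animals, and the spread behind each p-value is that between arrays, which could be technical in part.

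Conjugation is the second phase of drug metabolism. A transferase attaches glucuronic acid, glutathione, sulfate or an acetyl group to a foreign compound, a steroid, a bile acid or a transmitter, epoxide hydrolases open reactive epoxides with water, and several Abcc pumps carry the conjugates out of the cell. Liver is the main site. In brain the glutathione S-transferases are the best known members, in astrocytes and in the choroid plexus, and Ugt8 is a special case because it adds galactose to ceramide and makes galactocerebroside, the main glycolipid of myelin. Halothane is oxidised in liver mainly by Cyp2e1 to trifluoroacetate.

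The Ugt2b genes are closely related and lie near one another on chromosome 14 (rat build GRCr8). RefSeq promoter sequences were matched to 30 of the 40 genes. The longest stretch of the Ugt2b35 promoter found in at least 5 of the 6 Ugt2b genes with a promoter entry was 25 bases. The number 5 was thus set by the search. This run lies upstream of the start and is absent from the promoter of Ugt2b1. The sequences are shown because these genes are much alike just upstream of their starts while only Ugt2b35 gave a call. Each is a window of 90 bases on the plus strand, with the shared run in capitals, at chr14:20985345-20985434 for Ugt2b, chr14:21122758-21122847 for Ugt2b15, chr14:21172040-21172129 for Ugt2b37, chr14:21208324-21208413 for Ugt2b35 and chr14:21251415-21251504 for Ugt2b7.
Ugt2b35: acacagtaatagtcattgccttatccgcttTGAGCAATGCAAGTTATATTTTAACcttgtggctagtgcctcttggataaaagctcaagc
Ugt2b7: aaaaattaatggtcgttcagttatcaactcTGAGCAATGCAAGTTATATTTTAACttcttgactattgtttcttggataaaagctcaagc
Ugt2b: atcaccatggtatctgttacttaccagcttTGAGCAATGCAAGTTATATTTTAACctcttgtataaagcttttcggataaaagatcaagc
Ugt2b15: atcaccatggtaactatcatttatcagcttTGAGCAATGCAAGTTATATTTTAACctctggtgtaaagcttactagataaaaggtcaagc
Ugt2b37: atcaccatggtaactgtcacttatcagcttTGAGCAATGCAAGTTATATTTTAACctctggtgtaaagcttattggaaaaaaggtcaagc
The run was found in 7 of 33469 rat promoter entries, or 0.0209%. These 7 include the 5 genes it was chosen from, so the share is no measure of how rare such a run is. From the run towards the start, 85.0% of the compared bases of Ugt2b7 were identical to Ugt2b35, 83.8% of those of Ugt2b, 83.3% of those of Ugt2b37 and 80.8% of those of Ugt2b15. The 66 to 80 bases compared per gene begin with the 25 of the run, which are identical by its choice and raise these shares. The match is a description of these letters and names no factor.

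The deposited signal is linear and scaled per array. A floor was set at 16.5, the 25th percentile of all table values, and lower values were raised to it before taking log2, so that changes of dim genes are understated. Of the 78 probe sets, 63 were above the floor on at least 3 arrays and were tested, for 39 genes, and 36 were above it on all 24 arrays. By family the tested probe sets were 11 of 14 for Ugt, 23 of 25 for Gst, 11 of 16 for Sult, 6 of 8 for Nat, 4 of 5 for Ephx and 8 of 10 for Abcc. The 15 others reached at most 22.8 on any array, and 10 of them were above the floor on 0 arrays. Sult1c2a was the only gene with no tested probe set. Among tested probe sets 12 were above the floor on only 3 to 12 arrays, and such a probe set can pass the filter through the group in which it is high. Signals of different probe sets depend on their probes and were not compared as amounts.

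In control brain, Gst signals were measured well above the floor. Gstm1, a mu-class enzyme, had a control signal of 831 to 1316 with a median of 1035 on probe set J02810mRNA_s_at. Gstp1, the pi-class enzyme, had 954 to 1214 with a median of 1032 on rc_AI012589_s_at, and its control SD of 0.097 on the log2 scale was the smallest of the 36 probe sets above the floor on every array. Of the 23 tested Gst probe sets, 19 were above the floor on all 24 arrays. Ugt8, the myelin enzyme, had a signal of 438 to 804 in control with a median of 520.

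The drug-conjugating Ugt genes gave low or conflicting signals. For Ugt2b the control median was 369 on probe set M74439mRNA_i_at and 41.4 on rc_AI169708_s_at, and its remaining probe set stayed under the floor on all arrays. Ugt2a1, known from olfactory tissue, had a control median of 35.0, Ugt2b1 one of 43.0 and Ugt2b7 one of 41.7. Control medians of Ugt1a5, the pseudogene Ugt1a9-ps, Ugt2b15, Ugt2b35 and Ugt2b37 all lay under the floor.

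Among sulfotransferases, Sult5a1 had a control signal of 236 to 350 (median 304) and the hydroxysteroid sulfotransferase Sult2a2 one of 101 to 187 (median 132) on rc_AA945589_at, where its other tested probe set had a median of 11.8. Nat2 had a control median of 916 on the family probe set U01347_f_at and 22.2 on U17261_s_at, a ratio of 41.4, so the first cannot be taken as a measure of Nat2 alone. Nat1 had control medians from 9.30 to 35.5 on 4 tested probe sets. Ephx2, the soluble epoxide hydrolase that acts on epoxy fatty acids, had a median of 286 on rc_AI104882_s_at and 26.1 and 28.4 on its other 2 tested probe sets, and Ephx1, the microsomal enzyme, had 98.1. Abcc6 had a control median of 208, and Abcc9, which forms ATP-sensitive potassium channels and is no known pump of conjugates, had 232 on D83598_at. The plot of signal by array shows every probe set with its control range.

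**Figure D1:**
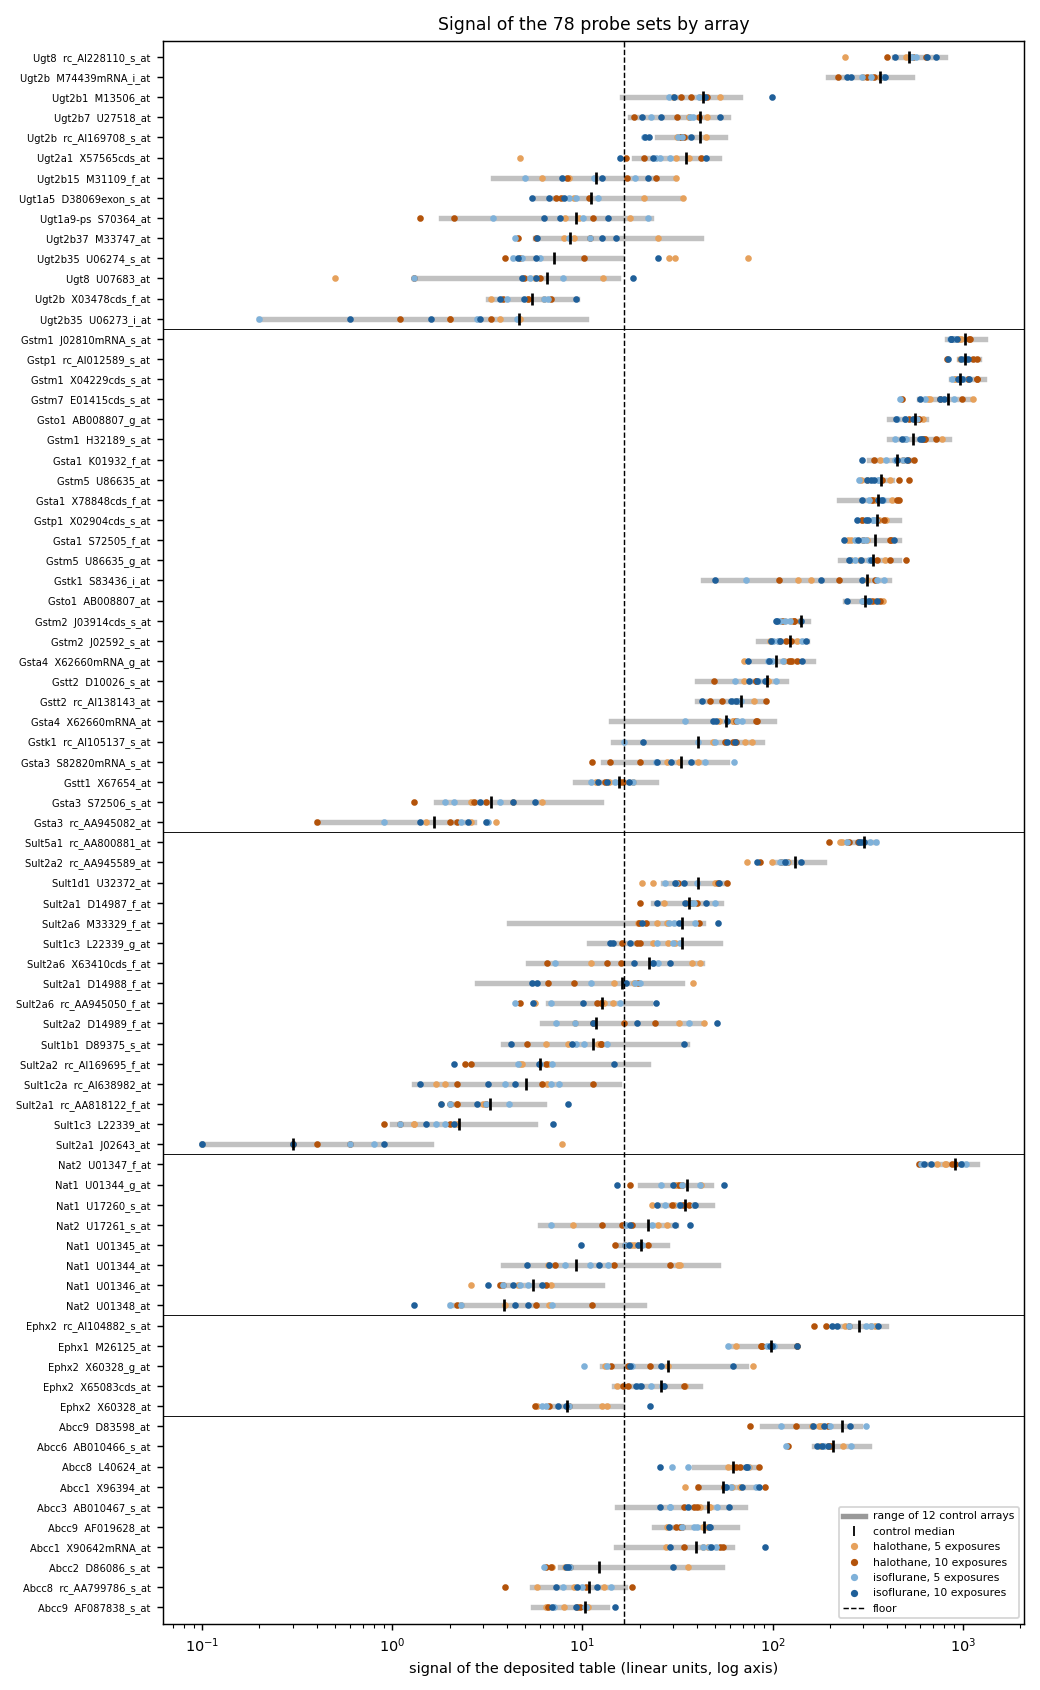
Signal of all 78 probe sets on a log axis, ordered within family by control median. Grey bars span the 12 control arrays, black ticks are control medians, coloured points are the 3 arrays of each exposed group, and the dashed line is the floor of 16.5; most Gst probe sets lie far to its right, and Ugt2b35 U06274_s_at has its 3 arrays of 5 halothane exposures to the right of a control bar that ends at 16.

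After 5 halothane exposures Ugt2b35, a UDP-glucuronosyltransferase, was the 1 member of 63 that was called, on 1 of its 2 probe sets, and it was higher than control. The other members did not pass, which does not show that they were unchanged. Over all 7389 probe sets tested, 0.0135% were called at an adjusted p under 0.05, which is this probe set alone. On U06274_s_at the 3 arrays read 28.7, 74.0 and 30.6, where the 12 controls ran from 4.30 to 16 with a median of 7.05. All 3 arrays were above the highest control, and every control was at or below the floor. Its log2 difference from that floor was 1.28 ± 0.17 (SE, n = 3 against 12, limma adjusted p = 0.00105), with 95% limits of 0.93 and 1.64. The probe set was above the floor on 4 arrays, 3 of them in this group, so it passed the filter through the group in which it is high. With no filter the limma adjusted p was 0.0031. Because every control value was set to the floor, the control SD on that scale was 0, and the SE and p rest partly on this. The call was lost within the low spike-in arrays (limma adjusted p = 0.328) and on the 15 arrays numbered 1 to 3 with the replicate block (0.24) or without it (0.367). The strict filter and the floor at the 40th percentile left the probe set untested.

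The other groups did not show this level of Ugt2b35 as a group. After 10 halothane exposures U06274_s_at read 4.70, 10.2 and 3.90, and after 5 isoflurane exposures 4.80, 4.30 and 6.00, all under the floor, so no fold is given for them. After 10 isoflurane exposures it read 25, 5.70 and 4.60: replicate 1 was above every control and the others were not, and the log2 difference of 0.20 did not pass (limma adjusted p = 0.779). The second Ugt2b35 probe set, U06273_i_at, read 3.70, 2.00 and 4.70 after 5 halothane exposures against 0.20 to 10.5 in control. It stayed under the floor on all 24 arrays, so it gives no second measurement of the higher signal. By the array maker's suffixes, an i probe set holds an incomplete set of probes, and s and f probe sets can match more than one transcript or a family.

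Albumin, a liver transcript, was high on the same array that had the highest Ugt2b35 signal. On replicate 2 of 5 halothane exposures the Alb probe set rc_AA866237_s_at read 151.1, where the other 23 arrays ran from 6.60 to 35.8, and rc_AA860062_g_at read 67.4, where they ran from 8.30 to 20.6. Replicates 1 and 3 read 31.1 and 26.0 on the former and 10.5 and 17.7 on the latter, within the control ranges. The third Alb probe set, rc_AA860062_at, read 34.8 on replicate 2. This was just above the highest control (34.2) and inside the range of the other 23 arrays (15.1 to 38.2). Of the 14 tested probe sets of the liver list, 9 were higher and 5 lower in the group than in control, 0 were called, and 3 had their highest value on replicate 2. Mean log2 signal of the list ran from 6.01 to 6.46 in the controls and was 6.25, 6.60 and 5.92 on the 3 arrays. Transthyretin (Ttr), shared with the choroid plexus, was on both probe sets lower on replicates 2 and 3 than on replicate 1, and Apoa1 and Fgb on replicate 2 lay within their control ranges. Serpina1, another liver transcript, read 180.4 on replicate 2, where the other 23 arrays ran from 63.5 to 157.2. Without replicate 2 the log2 difference of Ugt2b35 was 0.84 (limma adjusted p = 0.0016). In that fit every control was still set to the floor, and the probe set had passed the filter through this group. It does not address liver RNA on replicates 1 and 3. The part of liver RNA in the Ugt2b35 signal was not tested.

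Other Ugt2b genes did not show the pattern of Ugt2b35. After 5 halothane exposures Ugt2b37 read 8.00, 25.1 and 9.00 against 5.60 to 41.8 in control, and Ugt2b15 read 30.9, 8.50 and 6.10 against 3.40 to 29.9. Ugt2b7 read 45.1, 36.4 and 36.5 against 17.9 to 58.5, and Ugt2b on rc_AI169708_s_at read 44.8, 31.5 and 32.6 against 24.7 to 56.2. In these 4 probe sets the exposed arrays overlapped the controls. The brighter Ugt2b probe set, M74439mRNA_i_at, read 369.9, 382.7 and 300.5 and overlapped its control range of 196.3 to 539.3 as well. Replicate 2 was the highest of its group on it and for Ugt2b37, as for Ugt2b35, and not for Ugt2b15, Ugt2b7 or rc_AI169708_s_at.

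**Figure D2:**
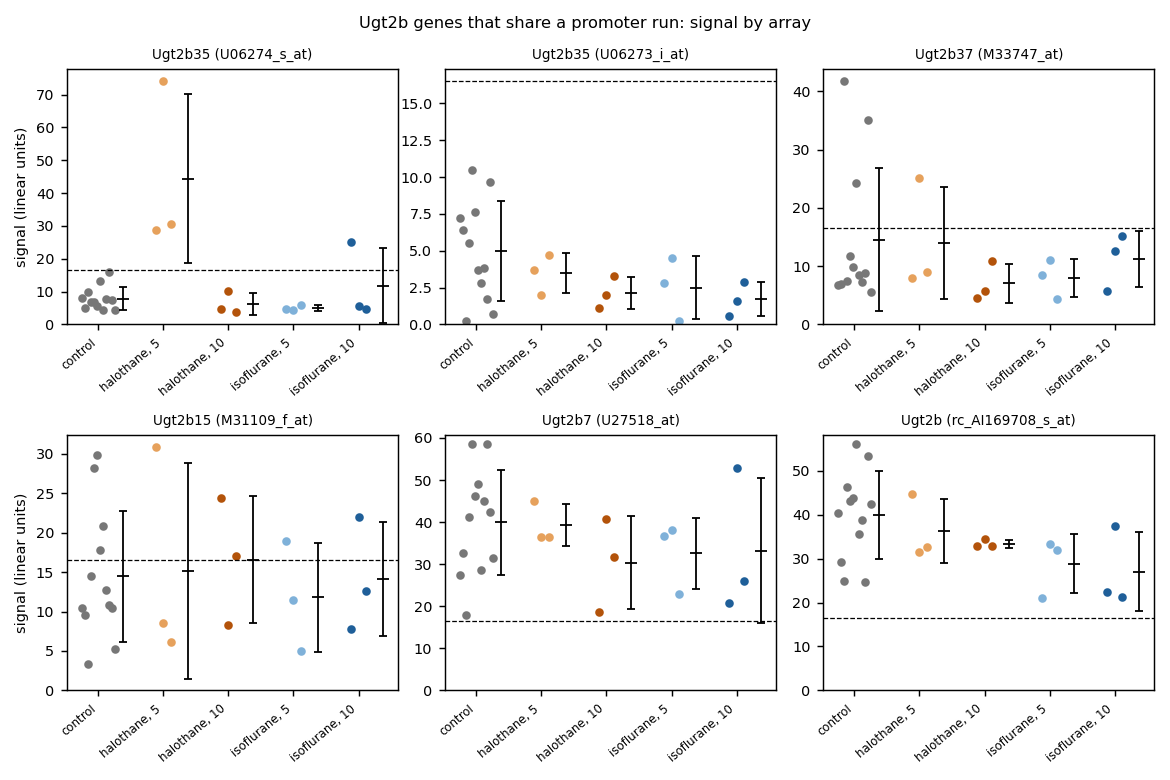
Linear signal by array for the Ugt2b genes that carry the shared promoter run, with both Ugt2b35 probe sets. Points are arrays, black marks are the mean and SD of each group (n = 12 control, n = 3 exposed), dashed lines are the floor of 16.5, and only U06274_s_at has 3 exposed arrays (28.7 to 74.0) above every control.

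In the direct comparisons Ugt2b35 was called between 5 halothane and 5 isoflurane exposures and between 5 and 10 halothane exposures. Both log2 differences were 1.28 ± 0.22 in size (SE, n = 3 against 3, limma adjusted p = 0.0401), higher after 5 halothane exposures each time, and both rest on groups that lie wholly at the floor and on a filter passed through the high group. With no filter neither passed (limma adjusted p = 0.081), nor did they with only the groups compared in the fit (0.955 and 0.968). In each of these comparisons 0.0135% of all probe sets was called, again this one. Of the 24 fits with 1 array left out, 6 kept the call in each comparison, those without an array of 5 halothane or 10 isoflurane exposures. Leaving out any 1 control, any array of 10 halothane or any of 5 isoflurane exposures lost both calls. The interaction of agent and exposure number was -1.48 ± 0.31 and did not pass (limma adjusted p = 0.57), and 0% of all probe sets passed there. The agents were given at different concentrations.

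The other members with the lowest p after 5 halothane exposures did not pass. Sult5a1 read 227, 233 and 247 against 236 to 350 in control, so that 2 of 3 arrays were below every control, with a log2 difference of -0.34 ± 0.12 (limma adjusted p = 1). Sult2a2 read 121.3, 99.2 and 73.6 on rc_AA945589_at against 101.3 to 187.1, a difference of -0.46 ± 0.18 (limma adjusted p = 1), where its probe set D14989_f_at had a difference of 0.57. Ugt8 read 539, 241 and 505 against 438 to 804. Only replicate 2 was below the controls, and the myelin list on that array had a mean log2 signal of 9.58, within the 9.03 to 9.70 of the controls. At an unadjusted p under 0.05 there was 1 higher member and 4 lower ones of 63, where 1.65% of all probe sets were higher and 1.88% lower. All 3 arrays were above every control for 1 member, Ugt2b35, and below every control for 0, where the shares over all probe sets were 0.122% and 0.23%.

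After 10 halothane exposures 0 of 63 members were called, where 0.0406% of all probe sets were. The lowest p belonged to Sult1c3, a cytosolic sulfotransferase of the phenol family. On L22339_g_at it read 20.0, 19.3 and 16.2 after 10 exposures against 10.8 to 52.9 in control, where the median was 33.5 and the lowest array but one read 26.0. The 3 arrays were below 11 of the 12 controls and overlapped the range only through control 3. The log2 difference of -0.84 ± 0.22 did not pass (limma adjusted p = 0.227). Replicate 3 and control 3 lay under the floor and entered the fit at it. The other Sult1c3 probe set, L22339_at, stayed under the floor on all arrays.

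Ephx2 and Gsta3 had the next lowest p after 10 halothane exposures. Ephx2 read 165, 252 and 190 on rc_AI104882_s_at against 210 to 394 in control, so that 2 of 3 arrays were below every control, a difference of -0.55 ± 0.17 (limma adjusted p = 0.39). Its other tested probe sets had differences of -0.63 and -0.31, which did not pass either. Gsta3, an alpha-class transferase, read 13.9, 20.1 and 11.2 on S82820mRNA_s_at against 12.8 to 57.7 (-0.85 ± 0.33, limma adjusted p = 0.534). Abcc9 read 76.5, 133.6 and 195.0 on D83598_at against 87.8 to 289.3, and its 2 tested probe sets had differences of -0.72 and -0.36.

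Gstm5, the mu-class transferase known from brain and testis, was among the 2 members that were higher at an unadjusted p under 0.05 after 10 halothane exposures. It read 461, 523 and 375 on U86635_at against 290 to 423 in control, and 415, 506 and 354 on U86635_g_at against 226 to 464. Both probe sets put 1 or 2 arrays above every control, and neither passed (0.31 on U86635_at, limma adjusted p = 0.588). The other was Gstm1 on X04229cds_s_at, with a difference of 0.20. Of the members, 5 were lower at that level, where 3.38% of all probe sets were higher and 4.14% lower. For 0 members were all 3 arrays above or below every control, where the shares over all probe sets were 0.595% and 0.474%.

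After 5 isoflurane exposures 0 of 63 members were called, and 0% of all probe sets. Gstm1 read 889, 860 and 916 on J02810mRNA_s_at against 831 to 1316 in control, a difference of -0.21 ± 0.09, and Gstm2 read 124.1, 109.7 and 116.8 on J03914cds_s_at against 120.0 to 154.3, a difference of -0.25 ± 0.12. Ugt2b on rc_AI169708_s_at read 21.1, 33.4 and 31.9 against 24.7 to 56.2 (-0.45 ± 0.24). All 3 had limma adjusted p-values of 1. The other tested Gstm2 probe set, J02592_s_at, had a mean of 116.9 against 119.3 in control. Those of Gstm1 had means of 481.2 against 570.4 (H32189_s_at) and 946 against 1003 (X04229cds_s_at). Gstm1 and Gstm2 were the 2 lower members at an unadjusted p under 0.05, with 0 higher, where 1.14% of all probe sets were higher and 1% lower. Non-overlapping members numbered 0 in either direction, where 0.135% of all probe sets lay above and 0.0271% below every control.

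After 10 isoflurane exposures 0 members were called, and 0% of all probe sets. Sult1c3 again had the lowest p: L22339_g_at read 17.8, 14.5 and 13.9, below 11 of the 12 controls and under the floor on 2 of 3 arrays, with a difference of -0.97 ± 0.22 (limma adjusted p = 0.199). Without control 3, which read 10.8, the difference was -1.06 and passed (limma adjusted p = 0.019). Of the 24 fits with 1 array left out, this was the only 1 to pass. Ugt2b read 22.5, 37.4 and 21.3 on rc_AI169708_s_at (-0.56 ± 0.24, limma adjusted p = 0.466), with 2 of 3 arrays below every control. Gstm2 read 105.8, 141.1 and 104.1 on J03914cds_s_at (-0.26 ± 0.12, limma adjusted p = 0.501), again with 2 of 3 below. The members lower at an unadjusted p under 0.05 were these 3 and Gstm1 on J02810mRNA_s_at, with 0 higher. Over all probe sets 4.47% were higher and 4.59% lower. The other tested Gstm2 probe set, J02592_s_at, had a mean of 119.4 against 119.3 in control. Those of Gstm1 had means of 564.2 against 570.4 (H32189_s_at) and 1004 against 1003 (X04229cds_s_at). Non-overlapping members were again 0, where 0.487% of all probe sets lay above and 0.392% below every control.

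Sult1c3 after 10 exposures was set beside the blood list, which was low in the same groups. After 5 exposures L22339_g_at read 30.8, 23.6 and 28.1 with halothane and 29.8, 32.6 and 24.7 with isoflurane, inside the control range. Of these, 23.6 and 24.7 were inside it only through control 3 (10.8), since the next lowest control read 26.0. The difference between 10 and 5 isoflurane exposures was -0.77 ± 0.28 and did not pass (limma adjusted p = 1), where 0% of all probe sets were called. The comparisons with control share their 12 controls, so the low values after both agents are not independent of them. All 3 tested probe sets of the blood list, which are Hbb, Hbb-b1 and Alas2, had lower means at an unadjusted p under 0.05 in both 10-exposure groups, and 0 were called. The mean log2 signal of that list was 6.96 to 8.02 in controls, 6.47 to 6.59 after 10 halothane and 6.40 to 7.15 after 10 isoflurane exposures. Whether blood content has a part in the Sult1c3 values was not tested. In bulk tissue, fewer cells of a type and less RNA per cell cannot be told apart.

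**Figure D3:**
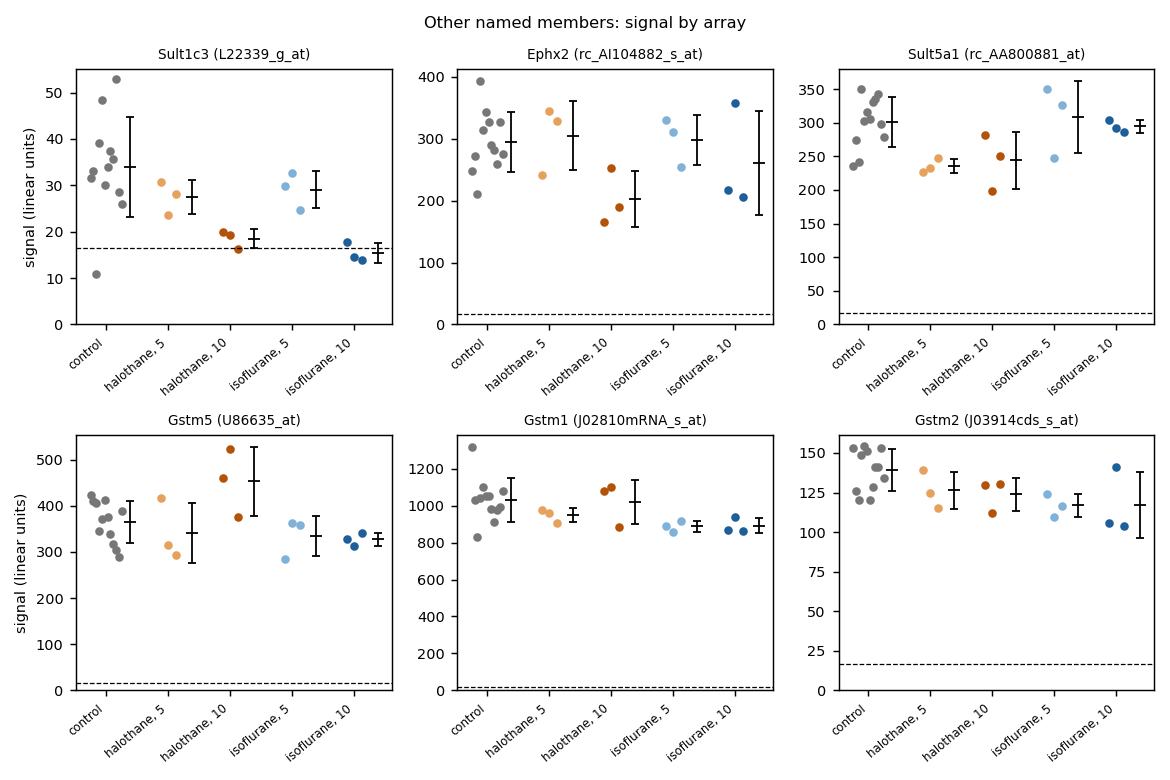
Linear signal by array for 6 named members, none of which passed in a comparison with control. Points are arrays, black marks are the mean and SD of each group (n = 12 control, n = 3 exposed) and dashed lines are the floor; Sult1c3 lies at 20.0 or below in both 10-exposure groups, and Gstm5 has 2 of 3 arrays of 10 halothane exposures above every control.

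With the 4 exposed groups averaged, 0 members were called against control, and 0% of all probe sets. The lowest p-values were those of Sult1c3 (-0.57 ± 0.14, limma adjusted p = 0.261), Ugt2b35 (0.37 ± 0.11, limma adjusted p = 0.335) and Sult2a2 on rc_AA945589_at (-0.32 ± 0.11, limma adjusted p = 0.43). The value of Ugt2b35 is that of 4 arrays above the floor, 3 of them from 1 group. At an unadjusted p under 0.05 there was 1 higher member and 5 lower ones, where 4.03% of all probe sets were higher and 4.41% lower. Between the agents at 10 exposures 0 members and 0% of all probe sets were called. Gstm5 had the lowest p there, with a log2 difference, halothane minus isoflurane, of 0.46 ± 0.16 on U86635_at (limma adjusted p = 1) and 0.54 on U86635_g_at. With isoflurane U86635_at read 328, 312 and 340, below all 3 halothane arrays.

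The members as a whole had more negative than positive differences from control. After 5 halothane exposures 39 of 63 were lower (median log2 difference -0.05, against -0.01 over all probe sets), after 10 halothane exposures 43 (-0.11 against -0.03), after 5 isoflurane exposures 47 (-0.11 against 0.01) and after 10 isoflurane exposures 46 (-0.09 against -0.0027). With exposed groups averaged, 48 of 63, or 76.2%, were lower, where 53.1% of all probe sets were. These counts describe the list and share the same controls. Under quantile normalization 45 were lower in that comparison and under median centring 43. After 10 halothane exposures the lower share was 68.3%, and 57.1% under median centring, where over all probe sets it was 56.2% and 47.4%.

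Over all probe sets 51.8% were lower after 5 halothane, 56.2% after 10 halothane, 48.4% after 5 isoflurane and 50.5% after 10 isoflurane exposures. By family, the Nat probe sets, which are of only 2 genes, were lower in all 6 cases after 10 halothane and after 5 isoflurane exposures (medians -0.18 and -0.10). They were lower in 5 of 6 after 10 isoflurane exposures (-0.21) and in 4 of 6 after 5 halothane exposures (-0.08), under all 3 scalings. Of the 11 Sult probe sets, 10 were lower after 10 halothane exposures (median -0.21), and 8 under median centring. After 10 isoflurane exposures 7 of them were lower (-0.02), and 5 under median centring. Gst was mixed: 13 of 23 probe sets were higher after 10 halothane exposures (median 0.07), and 18 under median centring, and 19 of 23 lower after 10 isoflurane exposures (median -0.105). Ugt had 9 of 11 lower after 10 halothane exposures (-0.19) and 6 of 11 after 5 (-0.01), where under median centring 4 were lower and the median's sign turned, as it did under quantile normalization. Ephx had 3 of 4 lower after 10 halothane (-0.43) and after 5 isoflurane exposures (-0.22), and 2 of 4 after 5 halothane and after 10 isoflurane exposures. Abcc had 6 of 8 lower after 5 isoflurane exposures (-0.22) and 5 of 8 in each other exposed group. Apart from Ugt2b35 after 5 halothane exposures, 0 members of any family passed against control.

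**Figure D4:**
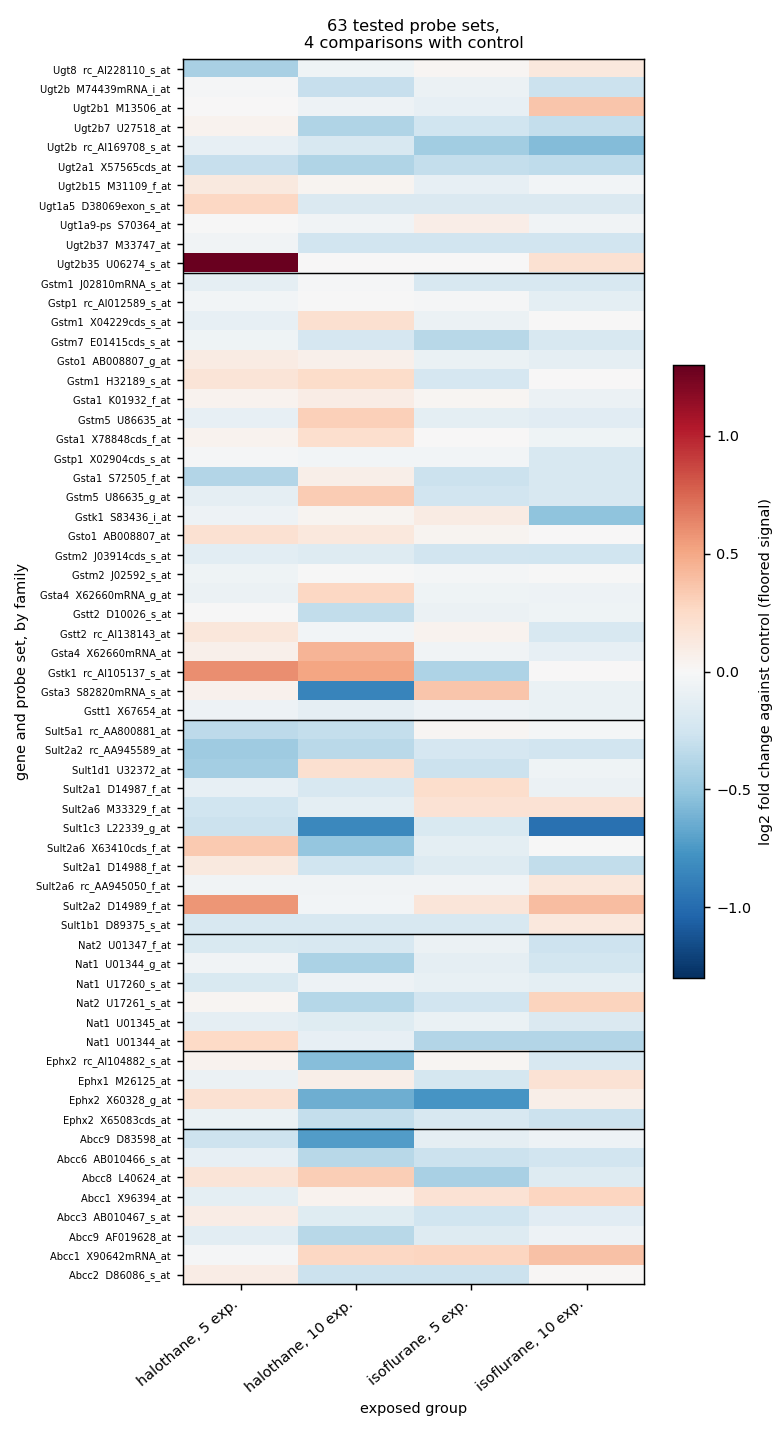
Log2 fold change of the 63 tested probe sets against control in the 4 exposed groups, by family, on a colour scale from blue (lower) to red (higher). The 1 called cell is Ugt2b35 after 5 halothane exposures (1.28).

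Different probe sets of a gene often disagreed. Of the 18 genes with several tested probe sets, all probe sets pointed the same way in 7 genes after 5 halothane, 17 after 10 halothane, 10 after 5 isoflurane and 11 after 10 isoflurane exposures. The exception after 10 halothane exposures was Gstm1. Control medians of probe sets of 1 gene differed by 41.4 times for Nat2, 11.2 times for Sult2a2, 11.0 times for Ephx2, 8.92 times for Ugt2b and 7.72 times for Gstk1. Across the 24 arrays the Gstm5 probe sets correlated with r = 0.82, while those of Gstt2 (-0.09) and Nat2 (-0.13) did not follow each other, a description over arrays that share their scaling. Gstk1, the mitochondrial and peroxisomal enzyme, ran from 43.3 to 409.7 within the controls on S83436_i_at, the widest control spread of the 36 probe sets above the floor on all arrays (SD 1.09 on the log2 scale, against a median of 0.28). Its exposed arrays, 50 to 387, lay inside that range.

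The genes that supply the cofactors and control the pathway did not pass either. Of 60 listed genes 43 were on the array, and 38 genes with 62 probe sets were tested, of which 0 were called in any comparison with control. Gclm, the modifier subunit of the enzyme that makes the glutathione precursor, had a mean signal of 29.5 on rc_AI233261_i_at after 10 halothane exposures against 17.6 in control (0.66 ± 0.14, limma adjusted p = 0.108). Its other 2 probe sets pointed the other way, with differences of -0.18 and -0.10 (limma adjusted p = 0.815 and 0.924). Nfe2l2, the factor that acts on antioxidant response elements, had 61.4 against 31.9 on rc_AI177161_g_at (0.99 ± 0.25, limma adjusted p = 0.224). Papss2, which makes the sulfate donor, had 49.5 after 5 halothane exposures against 26.1 (0.98 ± 0.35, limma adjusted p = 1). Mgst2, a membrane-bound glutathione transferase, had 247.6 after 10 isoflurane exposures against 341.8 (-0.45 ± 0.14, limma adjusted p = 0.338). At an unadjusted p under 0.05, 4 of the 62 probe sets were higher and 1 lower after 10 halothane exposures. Over all probe sets 3.38% were higher and 4.14% lower. After 10 isoflurane exposures 5 were higher and 6 lower, where the shares were 4.47% and 4.59%. After 5 halothane exposures 3 were higher and 0 lower (1.65% and 1.88%), and after 5 isoflurane exposures 0 and 0 (1.14% and 1%).

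The core of the antioxidant response element was searched as TGACNNNGC on both strands of the 250 bases before the start. It was found in 5 of the 30 matched members, Ephx1, Gsta3, Gstm5, Gstm7 and Gstp1, and in 10.1% of all rat promoter entries. The AP-1 site TGANTCA, which can overlap it, was found in 4 members, Ephx1, Gstm5, Gstp1 and Ugt2b1, and in 6.34% of all entries. The core of the xenobiotic response element, GCGTG, was found in 7 members and in 25.9% of all entries. None of these members passed in any comparison with control.

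The arrays fell into 9 with high and 15 with low signal of the 9 bacterial spike-in probe sets, a gap of 0.57 on the log2 scale. The high ones were 5 controls and replicate 3 of each exposed group, so the levels are not the groups. With this level as a block Ugt2b35 after 5 halothane exposures had a difference of 1.28 (limma adjusted p = 0.0014). Every control was at the floor there and the filter was passed through this group, so this fit is no separate support for the call. Within the low arrays alone, 2 against 7, the difference was 1.48 and did not pass (limma adjusted p = 0.328). Within the high arrays, 1 against 5, it was 0.89, a value with no spread in the exposed arm. Sult1c3 after 10 isoflurane exposures was -1.09 within the low arrays and passed there (limma adjusted p = 0.0456). The low arrays leave out control 3, the only control that overlapped these exposed arrays, so this is not separate from the fit without control 3. Brain markers were present: the neuron list had a mean log2 signal of 7.90 to 8.86 in controls and the astrocyte list one of 7.88 to 8.23, and 0 probe sets of any marker list were called against control.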

How the data were processed

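Whole rat brain RNA was measured on 24 arrays, and the deposited table holds 1 linear intensity per probe set and array. No source used here names the software that summarised and scaled it. Trimmed means lay between 150.15 and 150.18 and medians between 53.5 and 64.9, and the authors' scaling was kept. No 2 arrays were identical. The 59 control probe sets of 8799 were left out. Values were floored at 16.5 (25th percentile), log2 was taken, and 7389 probe sets that exceeded this floor on 3 or more arrays entered a two-sided limma fit (version 3.58.1, R 4.3.3, eBayes with a trend on intensity) of all 24 arrays in 5 groups, with Benjamini-Hochberg adjustment over all 7389. The fit was also run on simulated data. These were modelled only on probe sets above the floor on all 24 arrays, so they do not cover floored ones such as Ugt2b35 U06274_s_at. The few arrays limit the precision: the median 95% interval of a member reached 0.46 (log2) to either side for 3 against 12 arrays and 0.58 for 3 against 3.

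Symbols come from the platform annotation; all 78 Entrez identifiers were found in the current rat table with 0 symbols changed. Promoters are RefSeq's (GRCr8). The members and the lists (partner genes and cell type markers) were chosen with earlier results of these data known. Named were Ugt2b35, members that passed, the 3 lowest p in each comparison with control and 1 in each other comparison, genes with several probe sets, and the 2 members per family with the highest control signal. Further members were named after their values were seen: Ugt8, Abcc9, Gstm5 after 10 halothane exposures, the partner genes and the albumin probe sets. Alternatives were other floors, filters, normalizations and variance models, spike-in level, fewer arrays and the replicate block.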

Additional observations from a re-analysis of the deposited data

Results flagged for a closer look

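Ugt2b35 on U06274_s_at differed between the agents at 5 exposures by a log2 difference of 1.28 (halothane minus isoflurane, limma adjusted p = 0.0401) and between 10 and 5 halothane exposures by -1.28 (limma adjusted p = 0.0401), both direct tests of the difference. The probe set passed the filter through the arrays of 5 halothane exposures, and with no filter neither difference passed (limma adjusted p = 0.081). In each case 3 arrays of 5 halothane exposures, at 28.7 to 74.0, stood against 3 arrays under the floor of 16.5. No test of single outlying arrays is given here.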

How the results depend on the processing

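Over 16 other settings and 24 fits that each leave out 1 array, counts of called members stayed at 0 or 1. These counts are given without the share over all probe sets in each setting. They do not show whether a setting called more probe sets in general. For 5 halothane exposures against control (1 called) the count was 0 with the floor at the 40th percentile, the strict filter, the replicate block, the same 15 arrays without the block and the low spike-in arrays, and the leave-one-out range was 1 to 1. For 5 halothane against 5 isoflurane and 10 against 5 halothane exposures (1 called each) it was 0 with floors at the 10th and 40th percentile, no filter, the strict filter, no intensity trend, only the groups compared, without controls 10 to 12, the replicate block, the same 15 arrays and the low spike-in arrays. For the latter it was also 0 with median centring and with an offset in place of the floor; leave-one-out gave 0 to 1 for both. It was 1 for 10 halothane exposures with array weights (Sult1c3, -0.81, limma adjusted p = 0.0465), for 10 isoflurane exposures in the low spike-in arrays (leave-one-out 0 to 1), and for all exposed and the interaction in the high spike-in arrays, where every exposed group has 1 array and only the controls give a spread. With the floor at the 10th percentile the Ugt2b35 difference after 5 halothane exposures was 2.40 (limma adjusted p = 0.0197). The low spike-in arrays leave out control 3, the lowest control for Sult1c3. The offset and the 15 arrays without block were chosen after seeing the data. Of the named results, 0 reversed.

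With the replicate block, on the 15 arrays numbered 1 to 3, Ugt2b35 after 5 halothane exposures was 1.28 (limma adjusted p = 0.24), and 0.367 without the block on the same arrays. Of 30 pairs of arrays with the same number 20 had a correlation of deviations over 0.1 (median 0.20, range -0.18 to 0.52), against 8 of 60 pairs with different numbers (median -0.11). This is a hint from the data, not from the design. The 10 same-number pairs not over 0.1 all include control 1, control 2 or replicate 1 of 5 halothane exposures. Pairs of arrays numbered 3 were all over 0.1, from 0.24 to 0.52, and these arrays were all at the high spike-in level. The labels name nothing shared, and the fit without the block was kept, so any spread shared by number is left out of its model.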
